A study of Mus musculus with 8 samples.

Results

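The 7 genes described here encode the steroid hormone receptors Esr1, Esr2, and Pgr and the ErbB receptor tyrosine kinases Egfr, Erbb2, Erbb3, and Erbb4. They were chosen by gene name, as the receptors used in clinical subtyping of breast tumors (Esr1, Pgr, and Erbb2) with their relatives, and they are 7 of the 54532 genes in the count table. Estrogen receptors (Esr1, Esr2) and the progesterone receptor (Pgr) are nuclear transcription factors that bind DNA once a hormone is bound, and Esr1 drives Pgr transcription in luminal mammary cells. ErbB receptors sit in the cell membrane, bind growth factors of the EGF and neuregulin families, and signal as dimers to the RAS-MAPK and PI3K-AKT pathways. Erbb2 (HER2) has no known ligand and Erbb3 has a weak kinase, so these receptors act mainly with a partner. Breast tumors that lack estrogen receptor, progesterone receptor, and HER2 amplification are called triple-negative.

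Bulk RNA-seq was available for 8 subcutaneous tumors of 4T1-FLuc, a mouse line of triple-negative breast cancer that carries firefly luciferase, grown in immunocompetent female BALB/cJ mice injected at 6 weeks of age. The 4 mice of the treated group were given 5 courses of mAb-DXd/IMQ into the tail vein, 1 every 4 days, each at a dose of 16 mg/kg. This conjugate is an antibody to CD276 that carries DXd, an inhibitor of topoisomerase I, and IMQ, an agonist of TLR7 and TLR8. The 4 control mice received saline, which the treatment label calls PBS. Tumors were taken at the end of the study, and every tumor came from the same cell line, so the groups share its genotype. The labels give no batch. Library totals ran from 45019927 to 69582375 counts for saline and from 34591912 to 51625237 counts for mAb-DXd/IMQ.

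Levels are given as CPM (counts scaled by the size of each library and its TMM factor) and, where genes are compared with each other, as RPKM (the same value per kilobase of the gene length in the table). Of the 7 receptor genes, 6 passed the filter on low counts, and Erbb4 did not. Among these 6, 0 passed both thresholds (FDR of 0.05 by Benjamini-Hochberg and a log2 fold change of at least 0.58 up or down) in edgeR's quasi-likelihood test. Of the 18511 tested genes, 1.06% passed, 0.546% as higher and 0.519% as lower. At an unadjusted p under 0.05 there was 1 receptor, Esr1, against 18.9% of tested genes. None of the 6 passed under any of the 16 alternative fits, which included DESeq2 and limma-voom. The log2 fold change of mAb-DXd/IMQ against saline was above 0 for 4 receptors and below 0 for 2.

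Per length, Erbb2 was the most abundant receptor transcript in every tumor. Its mean was 19.6 ± 3.78 RPKM (SD, n = 4) in saline tumors and 19.4 ± 2.70 RPKM (SD, n = 4) in mAb-DXd/IMQ tumors. Erbb3 followed at 4.30 ± 1.44 and 5.22 ± 1.75 RPKM (SD, n = 4 each). Erbb2 lay above Erbb3 in 8 of 8 tumors, and the lowest Erbb2 value, 14.3 RPKM, was above the highest Erbb3 value, 6.93 RPKM. Esr1 had 1.40 ± 0.0835 RPKM in saline tumors and 1.15 ± 0.117 RPKM in mAb-DXd/IMQ tumors (SD, n = 4 each). Egfr had 0.953 ± 0.0423 RPKM and 1.24 ± 0.496 RPKM (SD, n = 4 each). These neighbors in the order were separate in saline tumors, where Esr1 exceeded Egfr in 4 of 4. In mAb-DXd/IMQ tumors their ranges overlapped, and the mean of Egfr exceeded that of Esr1 although Egfr was the higher of the pair in 1 of 4 tumors.

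The remaining receptors were near the detection floor. Esr2 had 0.114 ± 0.0771 RPKM in saline tumors and 0.164 ± 0.110 RPKM in mAb-DXd/IMQ tumors, and Pgr had 0.0430 ± 0.0329 and 0.0676 ± 0.0223 RPKM (SD, n = 4 each). Single tumors weighed on these means: the saline mean was 0.0751 RPKM for Esr2 without saline tumor 1 and 0.0274 RPKM for Pgr without saline tumor 2. Esr2 exceeded Pgr in 6 of 8 tumors, so their order was not kept beyond the spread. Erbb4 had the lowest means, with 0 counts in 6 of 8 tumors, and lay below Pgr in RPKM in 7 of 8 tumors, with saline tumor 4 the exception. Against the mean RPKM of all tested genes, 84.0% lay below Erbb2, 54.0% below Erbb3, 31.8% below Esr1, 29.6% below Egfr, 5.92% below Esr2, and 1.11% below Pgr. The gene length in the table equals the combined length of all annotated exons for 7 of 7 receptors. With the longest annotated transcript as the length, an alternative chosen after the data were seen, Esr1 lay above Egfr also in the mAb-DXd/IMQ means (2.48 and 1.37 RPKM), and every other place in the order was the same.

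**Figure D1:**
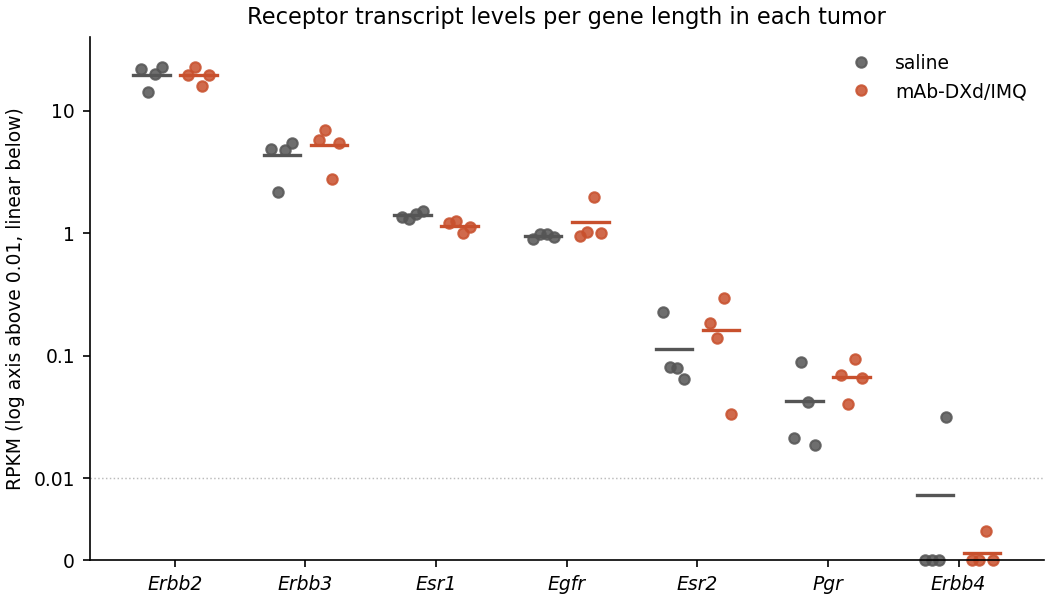
Level of each receptor transcript per gene length (RPKM, log axis above 0.01 and linear below) in 4 saline and 4 mAb-DXd/IMQ tumors, with points for tumors and lines for group means. Erbb2 lies between 14.3 and 22.7 RPKM in every tumor, while Esr2, Pgr, and Erbb4 lie below 0.3 RPKM.

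The starts of 4 of these genes are shown because the genes span the range of levels: Erbb2 at the top, Esr1 and Egfr in the middle, and Pgr near the floor. RefSeq promoter sequences (GRCm38.p6, 250 bases before to 50 after the start) were found for 6 of the 7 receptors, with 7 entries in all, 2 of them for Esr1. There was no entry for Erbb3. The windows below lie on the plus strand at chr11:98412234-98412533 for Erbb2, chr10:4611739-4612038 for the upstream start of Esr1, chr11:16751953-16752252 for Egfr, and chr9:8899583-8899882 for Pgr. Capitals mark matches on either strand to the GC box (GGGCGG), to the 5 letters that name the CCAAT box, or to the TATA box (TATAAA), and no marked matches overlap.
Erbb2: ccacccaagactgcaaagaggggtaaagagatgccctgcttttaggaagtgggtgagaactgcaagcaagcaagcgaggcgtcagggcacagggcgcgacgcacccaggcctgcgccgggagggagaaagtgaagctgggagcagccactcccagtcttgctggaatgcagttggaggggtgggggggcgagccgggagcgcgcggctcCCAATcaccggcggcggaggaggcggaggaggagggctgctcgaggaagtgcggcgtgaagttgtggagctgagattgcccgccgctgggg
Esr1: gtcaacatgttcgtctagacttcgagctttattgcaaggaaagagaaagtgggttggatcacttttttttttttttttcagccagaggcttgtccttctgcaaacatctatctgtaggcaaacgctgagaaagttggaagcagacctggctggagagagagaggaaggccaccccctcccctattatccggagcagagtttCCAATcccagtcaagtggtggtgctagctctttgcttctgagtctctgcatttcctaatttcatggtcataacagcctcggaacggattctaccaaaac
Egfr: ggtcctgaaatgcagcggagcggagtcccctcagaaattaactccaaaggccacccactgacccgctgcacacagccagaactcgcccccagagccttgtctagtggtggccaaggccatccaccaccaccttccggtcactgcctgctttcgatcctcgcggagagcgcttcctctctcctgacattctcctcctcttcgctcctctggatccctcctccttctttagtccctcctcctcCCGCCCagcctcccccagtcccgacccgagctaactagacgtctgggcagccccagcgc
Pgr: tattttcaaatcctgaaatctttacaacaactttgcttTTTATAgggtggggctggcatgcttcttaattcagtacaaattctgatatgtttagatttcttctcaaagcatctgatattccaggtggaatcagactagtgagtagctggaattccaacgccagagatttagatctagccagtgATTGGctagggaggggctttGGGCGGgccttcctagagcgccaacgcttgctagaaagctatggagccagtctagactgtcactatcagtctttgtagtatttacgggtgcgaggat

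The Erbb2 window was 66.0% G and C and the Egfr window 62.3%, against 46.3% for the upstream start of Esr1 and 43.7% for Pgr. The median over all 32851 promoters in the table was 52.7%. The entries not shown were above that median, at 59.3% for the second start of Esr1, 56.0% for Esr2, and 55.3% for Erbb4, so the share did not follow the order of levels. Erbb2 and Esr1 held a CCAAT box that began 41 and 49 bases before the start. Egfr held a GC box that began 9 bases before the start. Pgr held 1 match to each of the 3 motifs. Over all promoters of the same length, 35.7% held a GC box, 37.4% a CCAAT box, and 13.6% a TATA box. The consensus estrogen response element was in 0 of the 7 receptor windows and in 0.07% of all promoters. These matches describe letters in the windows only.

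Esr1, which encodes estrogen receptor alpha, was the receptor with the most even difference between groups. Its gene (ENSMUSG00000019768, chromosome 10 from 4611593 to 5005614, plus strand) had 18.6, 17.9, 19.4, and 20.6 CPM in saline tumors 1 to 4 and 16.6, 17.2, 13.6, and 15.3 CPM in mAb-DXd/IMQ tumors 1 to 4. Every mAb-DXd/IMQ tumor lay below every saline tumor, by a small margin between saline tumor 2 and mAb-DXd/IMQ tumor 2. Esr1 was the only receptor of the 6 tested whose groups did not overlap, which occurred for 13.1% of tested genes, 7.10% as lower and 5.97% as higher. The log2 fold change was -0.29 (standard error, SE, 0.13), which did not pass adjustment (adjusted p = 0.258, edgeR). With an offset for gene length in each tumor, it was -0.17 (adjusted p = 0.613, edgeR). In bulk tumors, fewer cells with a transcript and less of it per cell cannot be told apart.

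Esr2, which encodes estrogen receptor beta, was counted 4 to 46 times per tumor. Its gene (ENSMUSG00000021055, chromosome 12 from 76120419 to 76177259, minus strand) had 0.770, 0.271, 0.269, and 0.219 CPM in saline tumors and 0.619, 0.471, 1.00, and 0.112 CPM in mAb-DXd/IMQ tumors. Saline tumor 1 was far above the other saline tumors, and the mAb-DXd/IMQ tumors spread over the whole saline range and beyond it at both ends. For Esr2 the log2 fold change was 0.54 (SE 0.63, adjusted p = 0.690, edgeR). It was 1.13 without saline tumor 1 and 0.09 without mAb-DXd/IMQ tumor 3, so its size rested on single tumors. The processed pseudogene Gm7862 overlaps Esr2 on the same strand and had 944 counts over the 8 tumors against 182 for Esr2, with no exonic base shared.

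Pgr, the progesterone receptor gene (ENSMUSG00000031870, chromosome 9 from 8899833 to 8968611, plus strand), had 9 to 37 counts per tumor. Its levels were 0.182, 0.767, 0.358, and 0.161 CPM in saline tumors and 0.598, 0.343, 0.808, and 0.562 CPM in mAb-DXd/IMQ tumors. The groups overlapped, since saline tumor 2 was higher than 3 of the 4 mAb-DXd/IMQ tumors. For Pgr the log2 fold change was 0.67 with SE 0.55 (adjusted p = 0.554, edgeR). Without saline tumor 2 it was 1.30, and without saline tumor 4 it was 0.42.

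Erbb2, which encodes HER2, did not differ between the groups by more than its spread. Its gene (ENSMUSG00000062312, chromosome 11 from 98412470 to 98437716, plus strand) had 114, 74.3, 103, and 118 CPM in saline tumors and 102, 117, 83.0, and 101 CPM in mAb-DXd/IMQ tumors. Saline tumor 2 was the lowest of the 8 and mAb-DXd/IMQ tumor 3 the next lowest, and the mAb-DXd/IMQ tumors lay within the range of the saline tumors. The log2 fold change was -0.02 (SE 0.16, adjusted p = 0.967, edgeR), and its sign was positive without saline tumor 1 (0.03), saline tumor 4 (0.07), or mAb-DXd/IMQ tumor 3 (0.06). Upper-quartile scaling moved all genes alike, with the median of tested genes from 0.02 to 0.07 and Erbb2 to 0.03. Erbb2 made up 77.5% to 81.8% of the summed RPKM of the 4 ErbB receptors in saline tumors and 73.9% to 77.0% in mAb-DXd/IMQ tumors. The end of Erbb2 shares 9 exonic bases with Mien1 on the opposite strand, which had 3123 counts against 40548 for Erbb2. Whether the counting used strand is not given in the sources used here.

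Erbb3, the neuregulin receptor and main partner of HER2 (ENSMUSG00000018166, chromosome 10 from 128567523 to 128589652, minus strand), had 29.3, 13.2, 28.6, and 32.5 CPM in saline tumors. In mAb-DXd/IMQ tumors it had 34.7, 41.7, 16.8, and 32.4 CPM. The same tumors as for Erbb2 were low, saline tumor 2 and mAb-DXd/IMQ tumor 3, and the groups overlapped. Between groups the log2 fold change was 0.28 (SE 0.30, adjusted p = 0.667, edgeR), with values of 0.06 without saline tumor 2, 0.11 without mAb-DXd/IMQ tumor 2, and 0.49 without mAb-DXd/IMQ tumor 3. The ratio of Erbb3 to Erbb2 in RPKM was 0.223, 0.153, 0.241, and 0.238 in saline tumors and 0.293, 0.308, 0.175, and 0.279 in mAb-DXd/IMQ tumors. The ratio was lowest in the 2 tumors where both were low.

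Egfr, the receptor of EGF and TGF-alpha (ENSMUSG00000020122, chromosome 11 from 16752203 to 16918158, plus strand), was nearly level in 7 of the 8 tumors. It had 10.2, 11.2, 11.1, and 10.6 CPM in saline tumors and 10.8, 11.6, 22.4, and 11.3 CPM in mAb-DXd/IMQ tumors. Only mAb-DXd/IMQ tumor 3 stood apart, with 1027 counts, and the other mAb-DXd/IMQ tumors overlapped the saline tumors. The log2 fold change was 0.38 (SE 0.23, adjusted p = 0.414, edgeR) with this tumor and 0.06 (adjusted p = 0.880) without it. The antisense gene Egfros overlaps Egfr on the minus strand, shares no exonic base with it, and had 23 to 154 counts per tumor, with its highest count also in mAb-DXd/IMQ tumor 3.

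Erbb4, another neuregulin receptor (ENSMUSG00000062209, chromosome 1 from 68032186 to 69108059, minus strand), had 0, 0, 0, and 27 counts in saline tumors and 0, 0, 2, and 0 counts in mAb-DXd/IMQ tumors. A count of 0 allowed up to 0.0537 to 0.0843 CPM in those 6 tumors, at a limit of 3 counts that covers counting error only. Transcripts were thus counted mainly in saline tumor 4, at 0.395 CPM, and no fold change is given.

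**Figure D2:**
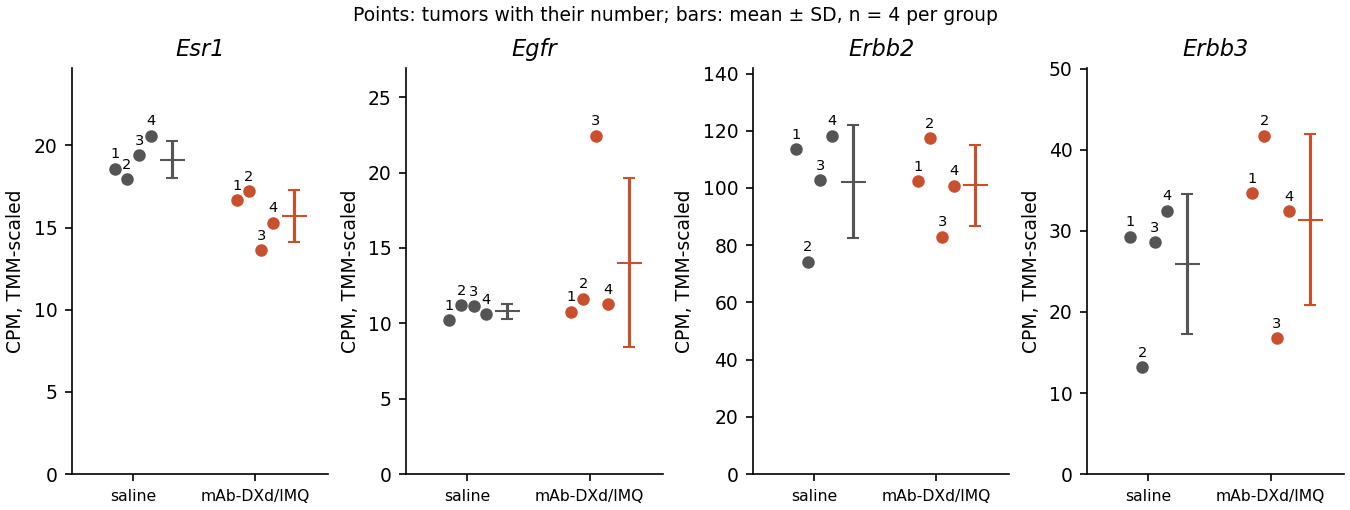
CPM of Esr1, Egfr, Erbb2, and Erbb3 in saline and mAb-DXd/IMQ tumors, with numbered points for tumors and bars for the mean ± SD (n = 4 per group). For Esr1 the groups do not overlap, for Egfr mAb-DXd/IMQ tumor 3 lies at 22.4 CPM above all others, and for Erbb2 and Erbb3 saline tumor 2 is the lowest.

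The 4T1 line is epithelial, so markers of other cell types were set beside the receptors. Luminal and simple epithelial markers were detected for 12 of 12 genes and summed to 2886, 2112, 2929, and 2653 CPM in saline tumors and 4197, 3240, 2411, and 2484 CPM in mAb-DXd/IMQ tumors, led by Krt18. Saline tumor 2 had the lowest sum and mAb-DXd/IMQ tumor 3 the next lowest, the order of Erbb2 and Erbb3, with mAb-DXd/IMQ tumor 4 close above. By single markers, named after their values were seen, these were the 2 lowest tumors for Epcam, Cdh1, Krt19, Elf3, and Cldn7 and not for the other 7, among them Krt8 and Krt18, which were lowest in mAb-DXd/IMQ tumor 4. Epcam, an adhesion molecule of epithelial cells, had 193 CPM in saline tumor 2 and 295 CPM in mAb-DXd/IMQ tumor 3, against 413 to 701 CPM in the others. Their part in the Erbb2 and Erbb3 values was not tested. None of the 10 tested luminal markers passed the thresholds, and 10 of 10 had a log2 fold change above 0, with Krt8 and Cdh1 near it (0.01 and 0.02). The median of the 10 was 0.37, against 0.02 over all tested genes.

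Fibroblast markers, 9 of 9 detected, summed to 2807, 3797, 6629, and 7082 CPM in saline tumors and 5505, 4237, 7524, and 2832 CPM in mAb-DXd/IMQ tumors, with Col1a1 the most abundant gene. The sum was highest in mAb-DXd/IMQ tumor 3, where Egfr was highest, and was carried there by Col1a1 (3971 CPM) and Col1a2 (2058 CPM). Of the 9 markers, 3 were highest in that tumor (Col1a1, Col1a2, and Fap) and 6 were not, with Pdgfra at 62.7 CPM the next to lowest of the 8 tumors. These single markers were named after their values were seen. The part of these markers in the Egfr value was not tested.

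Epidermis markers, of which 12 of 13 were detected and Krt2 was at 0, summed to 109 CPM in mAb-DXd/IMQ tumor 2 and 39.6 CPM in saline tumor 1, with 8.26 to 14.05 CPM in the other 6 tumors and Krt10 most abundant. Basal mammary markers (7 of 7 detected, Krt14 most abundant) summed to 209, 35.4, 157, and 105 CPM in saline tumors and 259, 503, 268, and 114 CPM in mAb-DXd/IMQ tumors. Of the 5 milk protein genes, Csn2, Csn1s1, and Wap were at 0 in all tumors, and the sum was at most 4.07 CPM, with Csn3 most abundant. Csn3, the 1 tested gene of this list, had a log2 fold change of 2.27 (SE 0.72, adjusted p = 0.128, edgeR). The groups did not overlap for Csn3, at 0.0358 to 0.858 CPM in saline and 0.899 to 4.02 CPM in mAb-DXd/IMQ tumors. It did not pass the thresholds, except in 1 of 16 alternatives.

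Other markers were detected at a range of levels. Macrophage markers (5 of 5, C1qa most abundant) summed to 542, 1764, 935, and 1113 CPM in saline tumors and 953, 779, 840, and 641 CPM in mAb-DXd/IMQ tumors, and they were highest in saline tumor 2, where Erbb2 and Erbb3 were lowest. Their part in the receptor values was not tested. Endothelial markers (5 of 5, Pecam1 most abundant) summed to 77.5 to 191 CPM, Schwann cell markers (7 of 7, Mbp most abundant) to 50.4 to 76.3 CPM, adipocyte markers (7 of 7, Lpl most abundant) to 4.02 to 26.3 CPM, and skeletal muscle markers (7 of 8, Acta1 most abundant, Tnnc2 at 0) to 41.5 to 428 CPM. No tested gene of these marker lists passed the thresholds in the main fit. Their median log2 fold changes were 1.09 for basal (6 of 6 above 0), 0.71 for epidermis, 0.56 for endothelial (5 of 5 above 0), 0.22 for Schwann cell, -0.06 for fibroblast, -0.36 for skeletal muscle, -0.60 for adipocyte (6 of 6 below 0), and -0.65 for macrophage markers (5 of 5 below 0). With limma-voom they were -0.07 for adipocyte, -0.16 for skeletal muscle, and -0.45 for macrophage markers. Over the 16 alternatives, Krt10, whose value was the epidermis median, ranged from -0.19 to 0.95. Of the basal markers, Krt5 ranged from -3.71 to 3.62 and Trp63 from -0.10 to 0.53, and the other tested ones stayed above 0. Krt5 had 112 CPM in mAb-DXd/IMQ tumor 2 and at most 1.05 CPM in the rest of that group. Mrc1 passed the thresholds in 3 of these alternatives, and Fap and Emcn in 1 each. In saline tumor 4, which had 27 Erbb4 counts, none of these marker sums was the highest of the 8 tumors.

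**Figure D3:**
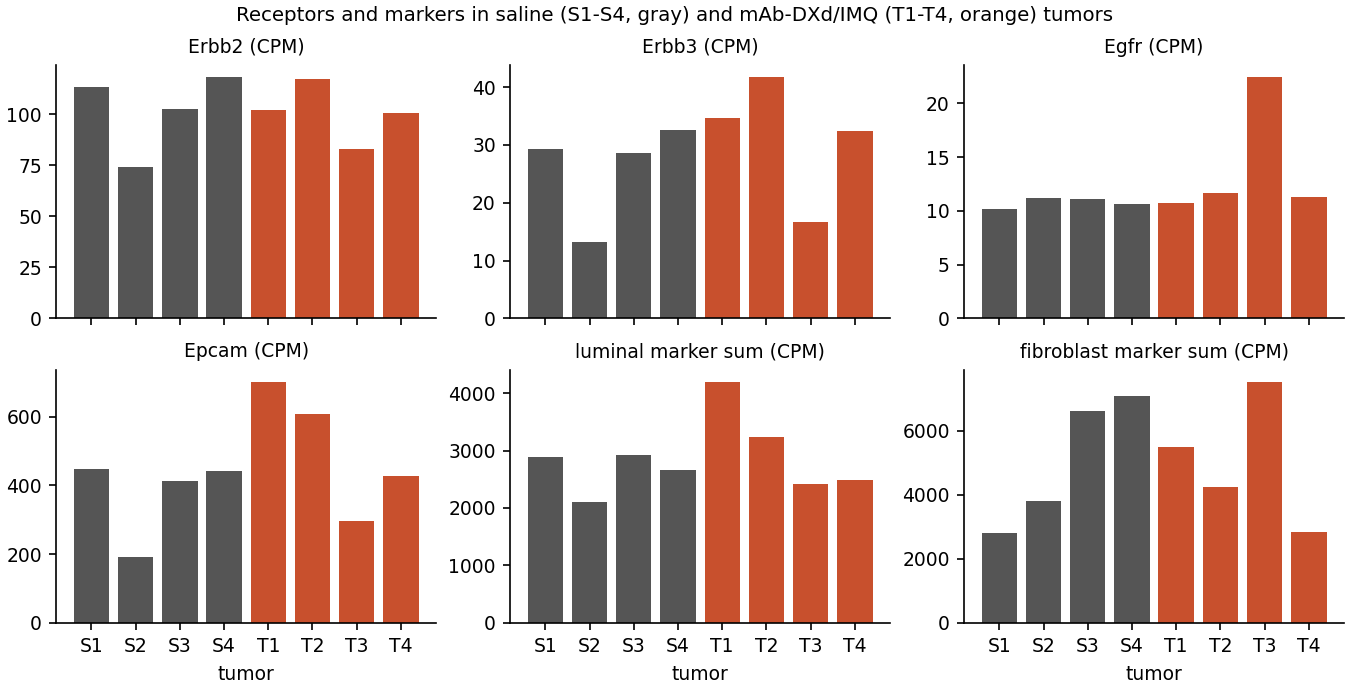
CPM of Erbb2, Erbb3, Egfr, and Epcam and summed CPM of the luminal and fibroblast markers in saline (S1 to S4) and mAb-DXd/IMQ (T1 to T4) tumors. Erbb2, Erbb3, Epcam, and the luminal sum are lowest in S2 with T3 next, and Egfr is highest in T3.

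The ligands of the ErbB receptors were led by Hbegf and Tgfa, which bind Egfr. Of 11 ligand genes 10 were tested, 1 passed the thresholds as lower, and 0 passed as higher. Per length, Hbegf had 35.3 RPKM in saline and 38.0 RPKM in mAb-DXd/IMQ tumors (means), Tgfa 20.3 and 12.8 RPKM, and Areg 14.7 and 9.18 RPKM. The other ligands were each below 1 RPKM in the mean of all tumors, and Nrg3 had 0 counts in every tumor. The median log2 fold change of the ligands was -0.02, against 0.02 over all tested genes, and with upper-quartile scaling it was 0.03 against 0.07. With limma-voom the ligand median was -0.12 against 0.01.

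Tgfa, which encodes TGF-alpha, was the ligand that fell. It had 148, 103, 131, and 144 CPM in saline tumors and 89.8, 93.6, 70.5, and 78.0 CPM in mAb-DXd/IMQ tumors. The groups did not overlap, with mAb-DXd/IMQ tumor 3, where Egfr was highest, as the lowest of all. The log2 fold change was -0.66 (SE 0.14, adjusted p = 0.0464, edgeR). This call was close to the threshold and held in 5 of 16 alternatives. The adjusted p was 0.0526 in limma-voom, 0.0808 with the gene-length offset, 0.118 with the replicate block, 0.145 with both, and between 0.0542 and 0.156 in edgeR without any single tumor other than saline tumor 2. The log2 fold change lay between -0.77 and -0.59 in all of the fits without a tumor and was -0.66 in limma-voom and with the block, and -0.63 with the offset or both.

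Among the other Egfr ligands, Hbegf had a log2 fold change of 0.11 (SE 0.14), which was 0.01 with the gene-length offset and 0.01 to 0.20 without single tumors, and Areg of -0.68 (SE 0.31, adjusted p = 0.263, edgeR). Areg, which encodes amphiregulin and is a known target of estrogen receptor alpha, had 21.1, 8.12, 16.1, and 25.8 CPM in saline tumors and 7.95 to 13.7 CPM in mAb-DXd/IMQ tumors. Saline tumor 2 lay among the mAb-DXd/IMQ tumors. The Areg value was -0.92 without that tumor and -0.43 without saline tumor 4. Egf, Ereg, and Btc had log2 fold changes of -0.13, 0.01, and -0.05, with standard errors of 0.31, 0.61, and 0.46. Epgn had 0.226 to 0.547 CPM in saline tumors and 0.394 to 1.38 CPM in mAb-DXd/IMQ tumors. The Epgn difference of 1.26 in log2 did not pass (SE 0.47, adjusted p = 0.180, edgeR).

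The neuregulins, which bind Erbb3, Erbb4, or both, were low. Nrg1 had 10.1, 4.74, 10.5, and 6.28 CPM in saline tumors and 7.92, 6.25, 15.7, and 7.11 CPM in mAb-DXd/IMQ tumors. The highest Nrg1 value was in mAb-DXd/IMQ tumor 3, as for Egfr, and its log2 fold change of 0.23 (SE 0.34) was -0.16 without that tumor. Nrg2 was lower in every mAb-DXd/IMQ tumor than in any saline tumor, at 0.600 to 0.703 CPM against 0.750 to 2.53 CPM, and did not pass (log2 fold change -1.15, standard error 0.39, adjusted p = 0.148, edgeR). Without saline tumor 2, the Nrg2 value was -0.76. Nrg4 had a log2 fold change of 0.66 (SE 0.32).

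**Figure D4:**
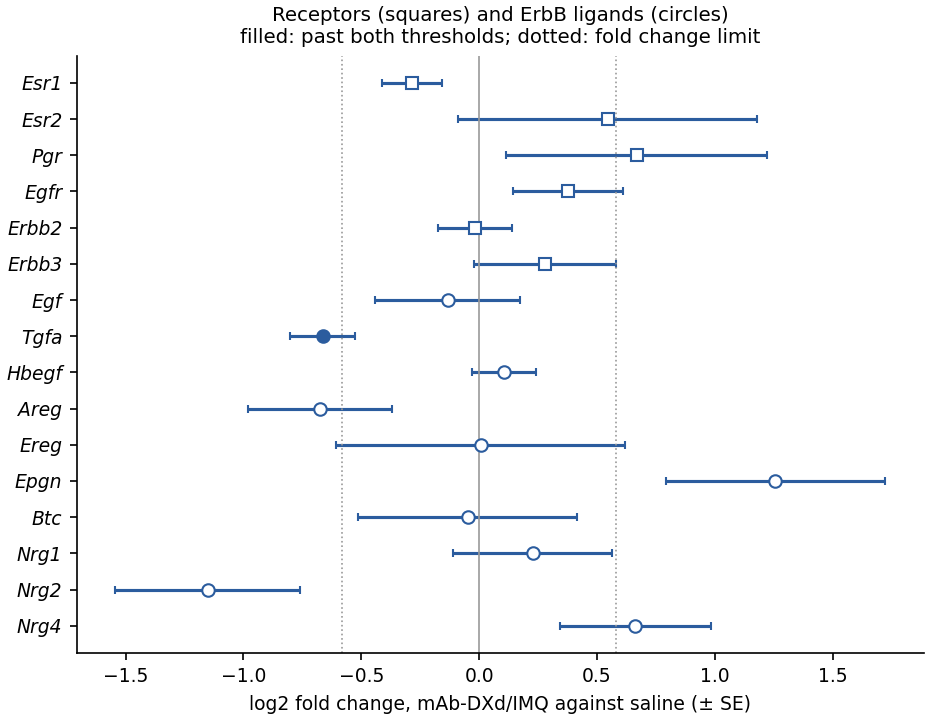
Log2 fold change of mAb-DXd/IMQ against saline tumors (± standard error, n = 4 per group) for the 6 tested receptors (squares) and 10 tested ErbB ligands (circles), with a filled symbol for a gene past both thresholds and dotted lines at the fold change limit. Tgfa is the only filled symbol.

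The genes around Erbb2 on chromosome 11, which are co-amplified with HER2 in some human breast tumors, were at levels like that of Erbb2 or below. Per length, Stard3 had 14.5 RPKM in saline and 16.6 RPKM in mAb-DXd/IMQ tumors, Grb7 13.2 and 16.9, Mien1 9.75 and 11.5, Tcap 7.002 and 6.82, Pgap3 3.31 and 3.42, and Ikzf3 0.606 and 0.302 (mean RPKM). Pnmt had 0 counts in every tumor. Of the 7 genes 6 were tested and 0 passed the thresholds in edgeR, with 0 of the 6 also in limma-voom. The log2 fold changes of Grb7, Mien1, Stard3, Pgap3, and Tcap were 0.35, 0.24, 0.19, 0.05, and -0.04, with standard errors of 0.21, 0.20, 0.10, 0.17, and 0.63. Leaving out single tumors moved the Grb7 value between 0.21 and 0.51 and the Mien1 value between 0.13 and 0.36. The Mien1 value was 0.11 with the gene-length offset and 0.10 with the replicate block added. Grb7, an adaptor that binds HER2, had 31.1 CPM in saline tumor 2 and 36.8 CPM in mAb-DXd/IMQ tumor 3, the 2 tumors in which Erbb2 was also lowest. Ikzf3, a lymphocyte transcription factor gene, had a log2 fold change of -1.004 (SE 0.24, adjusted p = 0.0624, edgeR) and passed in 2 of 16 alternatives, DESeq2 and the fit without saline tumor 1 (adjusted p = 0.00192 and 0.0471).

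Downstream of the receptors, the adaptor and effector list holds 21 genes. All 21 were tested, 1 passed as lower, 0 passed as higher, and 18 had a log2 fold change below 0. The median was -0.27, against 0.02 over all tested genes, of which 47.4% lay below 0. The median length of these genes was 6845 bases against 3516 bases over all tested genes, and the list's median was -0.23 with the gene-length offset. Sos2, a RAS exchange factor that couples ErbB receptors to RAS, was the gene that fell, with 77.6, 67.0, 61.7, and 60.9 CPM in saline tumors and 44.5, 46.6, 41.9, and 40.9 CPM in mAb-DXd/IMQ tumors. The groups were separate. For Sos2 the log2 fold change was -0.62 (SE 0.11, adjusted p = 0.0280, edgeR), and it held in 5 of 16 alternatives. It was lost with upper-quartile scaling (-0.57), with the gene-length offset (-0.55, adjusted p = 0.0689, edgeR), with a block for replicate number (-0.61, adjusted p = 0.0874), and with both (-0.55, adjusted p = 0.119). It was also lost in the fits that left out any single tumor other than mAb-DXd/IMQ tumor 1, at -0.54 without saline tumor 1 and at -0.66 to -0.58 with adjusted p from 0.0587 to 0.0955 (edgeR) in the rest.

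Genes of ligand shedding and receptor turnover were below 0 in 11 of 12 tested cases, with 0 past the thresholds and a median log2 fold change of -0.34. The most abundant per length were Errfi1, an inhibitor of ErbB kinases (80.8 and 54.5 RPKM in saline and mAb-DXd/IMQ tumors), Adam10, a sheddase (56.4 and 50.3 RPKM), Lrig1, a negative regulator of ErbB receptors (54.3 and 42.5 RPKM), and Rhbdf2 (19.0 and 18.4 RPKM). MAPK output genes, which respond to receptor signaling, numbered 14 tested with 0 past the thresholds, 10 below 0, and a median of -0.23. Their most abundant genes were Ccnd1 (182 and 126 RPKM), Dusp6 (124 and 98.5 RPKM), Spry1 (67.7 and 58.7 RPKM), and Epha2 (39.1 and 43.1 RPKM). With the gene-length offset, the median of the MAPK output genes was -0.29 and 1 of them passed. Over the 16 alternatives, Spred2 passed in 2 and Dusp4 in 1, and Cblb of the shedding and turnover list passed in 2.

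Among coregulators and partners of steroid receptors, 17 of 17 genes were tested, 1 passed as lower, and 0 passed as higher. The median log2 fold change was -0.13, and -0.09 with the gene-length offset. Nrip1, a corepressor recruited by estrogen receptor alpha, fell from 99.0, 99.5, 84.2, and 95.1 CPM in saline tumors to 60.3, 59.9, 58.2, and 67.6 CPM in mAb-DXd/IMQ tumors. The groups did not overlap for Nrip1, as for Esr1. Its log2 fold change was -0.62 (SE 0.10, adjusted p = 0.0219, edgeR), past the thresholds in 7 of 16 alternatives. It was lost with upper-quartile scaling (-0.57), with the gene-length offset (-0.52, adjusted p = 0.0693, edgeR), with the replicate block (-0.62, adjusted p = 0.0874), and with both (-0.52, adjusted p = 0.130). It was also lost without saline tumor 2, 3, or 4 or mAb-DXd/IMQ tumor 2 or 4, at log2 fold changes of -0.67 to -0.60 (adjusted p from 0.0518 to 0.0983, edgeR). Tfap2c and Ncoa1 passed only in alternatives, in 1 of 16 each. Tfap2c was higher without overlap, at 1.11 to 2.505 CPM against 0.117 to 0.831 CPM in saline tumors (log2 fold change 1.68, adjusted p = 0.122, edgeR). Ncoa1 was lower without overlap (-0.61, adjusted p = 0.0760, edgeR).

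Targets of estrogen and progesterone receptors numbered 11 tested of 15, with 0 past the thresholds in edgeR, 6 below 0, and a median log2 fold change of -0.10, which was -0.18 with the gene-length offset, -0.05 with upper-quartile scaling, and -0.04 with limma-voom. Igfbp4 (235 and 209 RPKM in saline and mAb-DXd/IMQ tumors), Ccnd1, Xbp1 (51.9 and 52.7 RPKM), and Areg were the most abundant. Other nuclear and hormone receptors numbered 15 tested of 17, with 0 past the thresholds, 12 below 0, and a median of -0.34. Gper1, 1 of the 3 above 0, had a log2 fold change of 1.18 (SE 0.33, adjusted p = 0.0932, edgeR). Its groups overlapped, and it passed in 1 of 16 alternatives. Esrra (22.7 and 23.7 RPKM), Rarg (26.7 and 18.1 RPKM), Vdr (25.6 and 18.7 RPKM), and Rara (20.3 and 18.1 RPKM) were the most abundant, each above Esr1 by more than the spread of either.

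Other receptor tyrosine kinases numbered 14 tested of 14, with 1 past the thresholds as lower and a median log2 fold change of 0.06. Fgfr2, a receptor of epithelial cells for fibroblast growth factors, had 162, 118, 139, and 142 CPM in saline tumors and 86.5, 94.9, 89.6, and 93.5 CPM in mAb-DXd/IMQ tumors, with no overlap. Its log2 fold change was -0.62 (SE 0.11, adjusted p = 0.0293, edgeR), past the thresholds in 6 of 16 alternatives. It was lost with upper-quartile scaling (-0.57), with the gene-length offset (-0.53, adjusted p = 0.0675, edgeR), with the replicate block (-0.61, adjusted p = 0.108), and with both (-0.53, adjusted p = 0.137). Leaving out any single tumor other than saline tumor 2 or mAb-DXd/IMQ tumor 1 also ended the call, at -0.55 without saline tumor 1 and at -0.64 to -0.61 with adjusted p from 0.0587 to 0.119 (edgeR) in the rest. The genes acted on by the conjugate were 0 of 4 past the thresholds. Cd276 had 27.1 RPKM in saline and 34.5 RPKM in mAb-DXd/IMQ tumors, above Erbb2 in both means, with Top1 at 9.05 and 7.89, Tlr8 at 5.60 and 2.97, and Tlr7 at 3.05 and 2.65 (mean RPKM). The groups overlapped for all 4 of these genes.

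**Figure D5:**
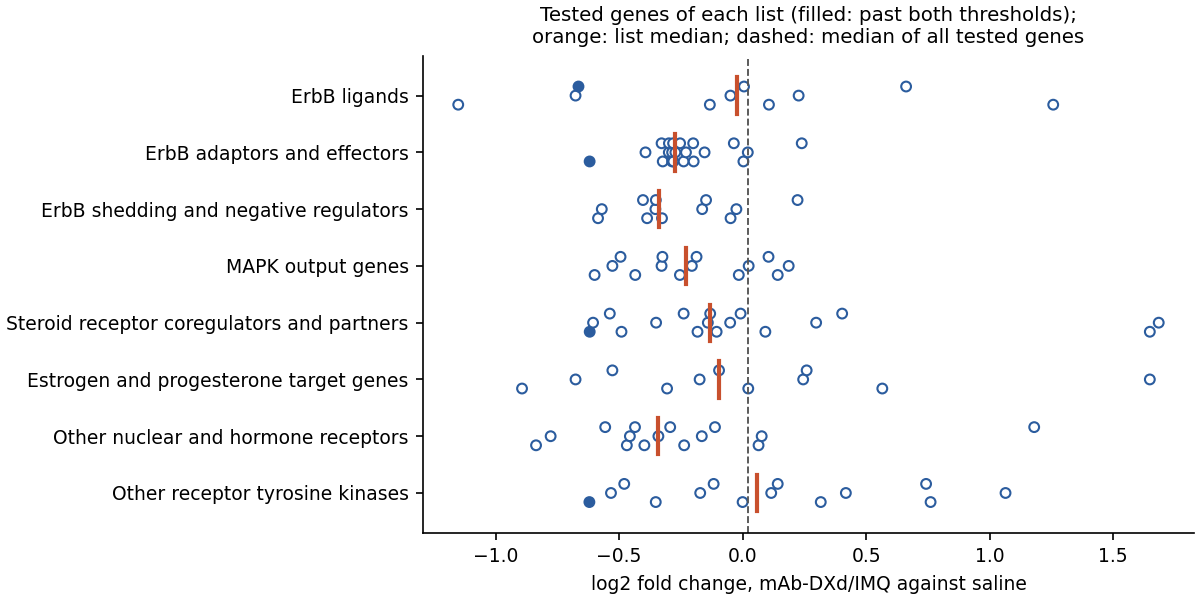
Log2 fold change of mAb-DXd/IMQ against saline tumors for each tested gene of 8 lists around the receptors, with orange lines at list medians and a dashed line at the median of all tested genes (0.02). Filled points are Tgfa, Sos2, Nrip1, and Fgfr2, each past both thresholds.

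Genes whose pattern was most like that of each receptor were taken from tested genes with a mean of at least 8 CPM, by Pearson correlation of log2 CPM over the 8 tumors, as a description only. For Erbb3 they were Nipal2 (r = 0.99), S100a14 (0.97), and Proser2 (0.95), and for Erbb2 they were Map7 (0.98), Myh14 (0.96), and Chdh (0.95). With the 2 tumors farthest from the median left out, saline tumor 2 and mAb-DXd/IMQ tumor 3, the values were 0.95, 0.80, and 0.89 for Erbb3 and 0.86, 0.74, and 0.72 for Erbb2. For Egfr they were Rhobtb2 (0.97), Slc38a1 (0.96), and Pidd1 (0.95), and without mAb-DXd/IMQ tumor 3 and saline tumor 1 they were 0.92, 0.62, and 0.47, so the last 2 rested largely on those tumors. For Esr1 they were Hnrnpul2 (0.99), Scaper (0.98), and Snx33 (0.98), with 0.96, 0.95, and 0.98 without mAb-DXd/IMQ tumor 3 and saline tumor 4. For Esr2 they were Gnpat (0.94), Naa15 (0.92), and Xpot (0.91), and for Pgr they were Gdpd5 (0.95), Nepro (0.95), and B4galt7 (0.95), at counts too low to read much into them. All 18 genes were picked as the highest of many correlations over the same 8 libraries.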

How the data were processed

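Counts of reads in each gene were what the authors deposited, for 8 mRNA libraries, with a length for each gene. The submitters' processing notes name HISAT2, HISAT, TopHat2, and mm39, while gene coordinates in the table are those of GRCm38. The counting program and its use of strand are not given in the sources used here. Tumors were grouped by their labels, and no pair of libraries in a group agreed within sampling noise. Genes were kept by filterByExpr (minimum count 10, total 15), scaled by TMM, and tested across the whole table with the quasi-likelihood F-test of edgeR 4.0.16 in R 4.3.3, with Benjamini-Hochberg adjustment. Calls needed FDR 0.05 and 0.58 in log2 fold change. Standard errors were approximated from the coefficient and the F statistic. RPKM used the gene lengths in the table. Alternatives used DESeq2 1.42.0, limma 3.58.1, other scalings, no filter, a gene-length offset (spline, 5 degrees of freedom), a replicate block, leaving out each tumor, and, chosen after the data were seen, longest transcript lengths. The fit was tested on simulated data. Named genes were the receptors, all ErbB ligands and Erbb2 neighbors, genes of other lists past the thresholds or otherwise up to 4 with the highest mean RPKM, and the 3 genes most like each receptor. A few further luminal, fibroblast, and basal markers, and genes past the thresholds only in alternatives, were named after their values were seen. Of marker lists, most are given by their sum, leading gene, and genes at 0. The members and lists were chosen with earlier results of these data known. Promoters came from RefSeq and exons from GENCODE vM21. Figures were drawn with matplotlib 3.10.9.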

Additional observations from a re-analysis of the deposited data

Results flagged for a closer look

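The 4 tumors of each group were checked for a tumor far from the rest, for the receptors, ligands, Erbb2 neighbors, Sos2, Nrip1, Fgfr2, and marker sums. In 6 of 72 groups the gap to the nearest tumor took up more of the group's range (Dixon's ratio) than about 1 group in 20 does by chance, or 3.6 groups. For Egfr the gap was 0.926 of the range, with mAb-DXd/IMQ tumor 3 at 22.4 CPM and the others at 10.8 to 11.6 CPM. For Esr2 it was 0.907, with saline tumor 1 at 0.770 CPM and the others at 0.219 to 0.271 CPM. For Erbb4 it was 1 in each group, since saline tumor 4 (27 counts) and mAb-DXd/IMQ tumor 3 (2 counts) were the only tumors with counts, and the latter lies under the limit of 3 counts. Epidermis markers had a gap of 0.887 for saline tumor 1 (39.6 CPM against 8.26 to 11.8) and 0.944 for mAb-DXd/IMQ tumor 2 (109 CPM against 8.43 to 14.05). The cause of these values was not tested.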

How the results depend on the processing

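Of 96 alternative values for the log2 fold changes of the 6 tested receptors, 92 kept the direction and the side of the thresholds and 4 reversed, all for Erbb2: 0.03 with upper-quartile scaling, which moved the median of all tested genes from 0.02 to 0.07, and, over the fits without 1 tumor, a range of -0.15 to 0.07. Without 1 tumor, the ranges were -0.33 to -0.22 for Esr1, 0.09 to 1.13 for Esr2, 0.42 to 1.30 for Pgr, and 0.06 to 0.49 for both Egfr and Erbb3. With the longest transcript as the length, 7 receptors in saline and 5 in mAb-DXd/IMQ tumors kept their place in the order.

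For 19 other genes named with fold changes, 24 of 304 values reversed (signs at 2 decimals, with 0.00 not counted), 41 lost a call, and 2 gained a call. Reversed values were -0.51 (limma-voom), -0.46 (replicate block), -0.05 (gene-length offset), and -0.50 (both) for Ereg, -0.02 (gene-length offset) and -0.03 (with replicate block) for Pgap3, and 0.01 (upper-quartile scaling), 0.22 (limma-voom), 0.27 (replicate block), and 0.14 (gene-length offset with replicate block) for Tcap. Without 1 tumor, the ranges were -0.27 to 0.02 for Egf, -0.92 to 0.34 for Ereg, -0.30 to 0.27 for Btc, -0.16 to 0.39 for Nrg1, -0.06 to 0.13 for Pgap3, and -0.41 to 0.44 for Tcap.

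The number of genes past the thresholds was 197 and moved to 358 with no filter, 787 with DESeq2, 122 with the gene-length offset, 14 with the replicate block, 14 with both, and 10 to 203 without 1 tumor. Of the 197, 101 were higher and 96 lower, against 145 and 73 with upper-quartile scaling. The numbers 1 to 4 do not pair the tumors: same-numbered tumors correlated at -0.17, -0.0546, 0.0794, and -0.0672 in their deviations from group means, and the block took the count to 14. The cause of these changes was not tested. Counts of 4 to 46 for Esr2 and 9 to 37 for Pgr limit the precision of their fold changes.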
